A study of Mus musculus with 12 samples.

Results

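The guanylate-binding protein (Gbp) genes described here are Gbp2, Gbp3, Gbp4, Gbp5, Gbp6, Gbp7, Gbp8 and Gbp9, which are 8 of the 24421 gene symbols in the count table. They were chosen by symbol, but with earlier results of these data known. RNA was sequenced from cells labelled macrophages, sorted from mouse tibialis anterior, a leg muscle, on day 5 after notexin, a myotoxic snake phospholipase, had been injected. The sort kept cells that were negative for propidium iodide, positive for CD45 and CD11B, and negative for LY6G and SIGLECF. The 4 groups of 3 libraries were Ifngr1 wt/null with isotype antibody, Ifngr1 wt/null with anti-TNFa neutralizing antibody, Ifngr1 null/null with isotype antibody, and Ifngr1 null/null with anti-TNFa neutralizing antibody, given daily into the peritoneum. The design asked how interferon gamma (IFN-γ) and tumour necrosis factor (TNF) shape these cells. All mice therefore carried at least 1 null allele of Ifngr1 and all were injured, so no wt/wt and no uninjured sample is among these libraries. The labels give neither the age of the mice nor the structure of the null allele, and they do not say whether each library came from a separate mouse. The p-values below therefore measure only the spread between these samples, which may be technical.

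Guanylate-binding proteins are large GTPases of the dynamin superfamily. IFN-γ binds a receptor whose ligand-binding chain is encoded by Ifngr1, the kinases JAK1 and JAK2 pass the signal on, and transcription factors that include IRF1 then switch on Gbp genes. In macrophages the proteins gather on vacuoles that hold intracellular microbes and on cytosolic bacteria, and they help to start inflammasome responses. TNF signals through other receptors to NF-κB and can add to IFN-γ at some promoters.

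Libraries held 23.2 to 29.9 M counts. The level of a gene is its count per M counts of its library (CPM), scaled by TMM. All 8 genes passed the filter on low counts and had 42 to 12836 counts per library. Ifngr1 separated the genotypes, with 226 to 250 CPM (median 234) in the 6 wt/null libraries and 83.3 to 119 CPM (median 87.9) in the 6 null/null libraries. The 119 CPM was in the library 40C2, and the other 5 null/null libraries were at 83.3 to 90.2 CPM. All 11 macrophage markers had counts in every library, and their summed level was 30496 to 37678 CPM in 10 libraries, 32402 CPM in 40C1 and 30147 CPM in 40C2. The names 40C1 (wt/null anti-TNF replicate 2) and 40C2 (null/null anti-TNF replicate 1) are sample titles. Both stood apart from the other 10 libraries in several marker genes, given beside the antibody results, so results are given with all 12 libraries and without these 2.

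The genes lie in 2 clusters of 4. On mouse genome build GRCm38 (mm10), RefSeq places Gbp5 at chr3:142496934-142522344, Gbp7 at chr3:142530336-142550151, Gbp3 at chr3:142560016-142573213 and Gbp2 at chr3:142620663-142638008, all on the plus strand. The other cluster holds Gbp8 at chr5:105012513-105053609, Gbp9 at chr5:105076464-105110357, Gbp4 at chr5:105115767-105139586 and Gbp6 at chr5:105270702-105295871, all on the minus strand. RefSeq promoter sequences were at hand for the 4 members on chromosome 3. They are shown because 2 short DNA motifs known from interferon-inducible promoters can be searched for in them. The 250 bases before each RefSeq start site (GRCm38.p6, plus strand, 5′ to 3′) read as follows, with capitals marking the core of the interferon-stimulated response element (ISRE; TTTCNNTTTC on either strand) and of the gamma-activated site (GAS; TTCNNNGAA, which is its own reverse complement).
Gbp2 promoter chr3:142620413-142620662: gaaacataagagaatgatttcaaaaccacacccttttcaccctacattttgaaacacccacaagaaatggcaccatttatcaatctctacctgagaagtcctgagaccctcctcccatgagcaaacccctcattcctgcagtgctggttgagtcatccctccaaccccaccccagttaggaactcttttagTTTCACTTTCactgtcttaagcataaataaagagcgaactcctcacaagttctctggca
Gbp3 promoter chr3:142559794-142560043: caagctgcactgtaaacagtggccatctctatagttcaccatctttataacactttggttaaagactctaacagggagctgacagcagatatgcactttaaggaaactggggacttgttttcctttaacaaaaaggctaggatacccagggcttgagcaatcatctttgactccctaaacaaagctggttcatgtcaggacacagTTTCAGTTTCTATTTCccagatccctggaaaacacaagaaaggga
Gbp5 promoter chr3:142496684-142496933: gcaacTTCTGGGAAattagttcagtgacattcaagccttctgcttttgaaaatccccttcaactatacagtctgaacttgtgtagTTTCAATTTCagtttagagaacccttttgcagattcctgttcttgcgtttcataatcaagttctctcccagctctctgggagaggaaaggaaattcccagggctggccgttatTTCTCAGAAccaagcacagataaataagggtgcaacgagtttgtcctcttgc
Gbp7 promoter chr3:142530086-142530335: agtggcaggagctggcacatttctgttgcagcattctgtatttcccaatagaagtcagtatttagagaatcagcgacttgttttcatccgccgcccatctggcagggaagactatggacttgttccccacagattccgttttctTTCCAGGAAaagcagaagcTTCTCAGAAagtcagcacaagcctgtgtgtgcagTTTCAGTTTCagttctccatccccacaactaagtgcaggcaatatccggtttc

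The ISRE core occurred in all 4 promoters, against 2.98% of 32851 promoter windows of the same length. It lay 59 to 50 bases before the start of Gbp2 (TTTCACTTTC), 165 to 156 before Gbp5 (TTTCAATTTC) and 53 to 44 before Gbp7 (TTTCAGTTTC). In Gbp3 a match at 45 to 36 bases overlapped another at 39 to 30, and the window before a second RefSeq start site of Gbp3 held none. The GAS core occurred in Gbp5, at 245 to 237 and 52 to 44 bases, and in Gbp7, at 106 to 98 and 87 to 79 bases, against 7.02% of windows. Both motifs together were found in 0.33% of windows. A match describes letters and does not show that a factor binds there.

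The members differed widely in level. Per kb of exon, the mean level over 5 wt/null libraries (without 40C1) was 40.0 ± 9.14 CPM per kb (SD) for Gbp2, 19.5 ± 1.61 for Gbp3, 10.2 ± 1.39 for Gbp7, 7.76 ± 0.975 for Gbp9 and 4.43 ± 0.579 for Gbp5. The lowest per kb were Gbp8 at 2.12 ± 0.492, Gbp6 at 1.49 ± 0.218 and Gbp4 at 1.31 ± 0.393 CPM per kb. Gbp6 and Gbp4 did not differ beyond their spread. The order of the 8 was the same over the 5 null/null libraries without 40C2. There Gbp2 at 17.1 ± 7.07 and Gbp3 at 13.8 ± 2.75 CPM per kb did not differ beyond their spread. The same held there for Gbp7 at 8.05 ± 1.92 and Gbp9 at 6.18 ± 1.13, and for Gbp6 at 0.595 ± 0.297 and Gbp4 at 0.458 ± 0.210. Before division by exon length the 3 lowest had the reverse order in the 5 wt/null libraries. Gbp4 was at 9.78, Gbp6 at 8.86 and Gbp8 at 7.29 CPM. The exon lengths came from GENCODE, and the annotation used for counting is not given. The level of Gbp6 also depends on how reads that it shares with other genes were counted, which is not given either.

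**Figure D1:**
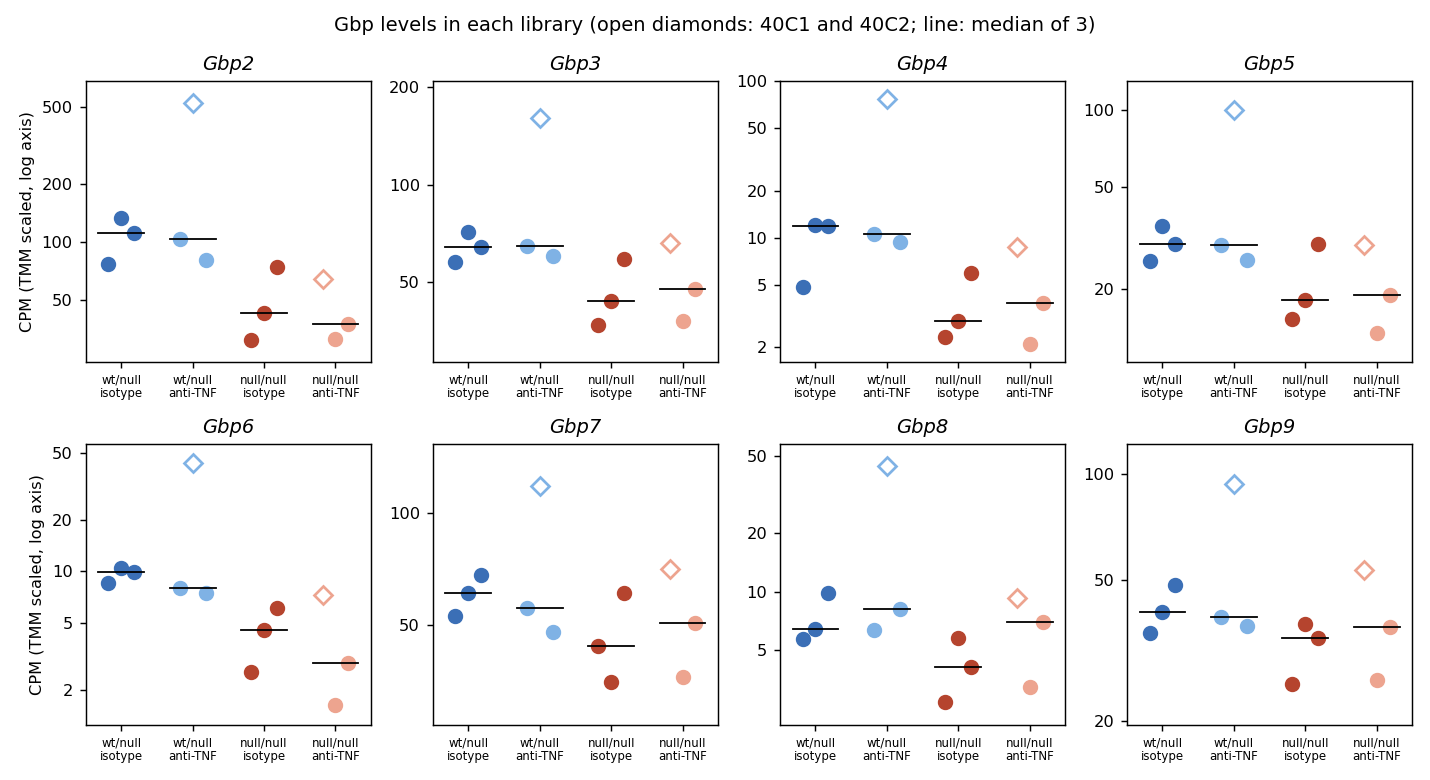
TMM-scaled CPM (log axis) of each Gbp gene in each of the 12 libraries, by group, with a line at the median of the 3 libraries; open diamonds are 40C1 (wt/null anti-TNF) and 40C2 (null/null anti-TNF). The 40C1 diamond is the highest point of every panel, at 525 CPM for Gbp2, and all null/null points of Gbp2 and Gbp6 lie below all wt/null points.

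Gbp2 and Gbp5 carry a C-terminal lipid anchor, a prenyl group, that attaches them to membranes. Gbp2 is recruited to vacuoles of Toxoplasma and to cytosolic Francisella. It was at 76.5, 133 and 110 CPM in wt/null isotype and at 103, 525 and 80.3 CPM in wt/null anti-TNF. It was at 30.8, 42.6 and 73.7 CPM in null/null isotype and at 63.9, 31.1 and 37.2 CPM in null/null anti-TNF. Every null/null library lay below every wt/null library, with a narrow gap between 73.7 CPM in 40C4 and 76.5 CPM in 40C3. Averaged over both antibodies, null/null minus wt/null was -1.77 ± 0.48 on the log2 scale (SE) with all libraries and -1.27 ± 0.26 without 40C1 and 40C2, where the mean null/null level was 42.8% of the wt/null level.

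Gbp5, known for promoting assembly of the NLRP3 inflammasome, was at 25.8, 35.3 and 30.02 CPM in wt/null isotype and at 29.7, 100 and 26.1 CPM in wt/null anti-TNF. In null/null it was at 15.2, 18.2 and 30.1 CPM with isotype and at 29.8, 13.5 and 18.9 CPM with anti-TNF. The genotypes overlapped, because 40C4 and 40C2 reached the wt/null range while the other 4 null/null libraries lay below it. The genotype estimate was -0.92 ± 0.36 (log2, SE), and -0.65 ± 0.19 without the 2 libraries, at 65.3% of the wt/null level.

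Gbp3 and Gbp7 complete the chromosome 3 members, and Gbp7 takes part in control of Toxoplasma and of intracellular bacteria. Gbp3 was at 57.6, 71.4 and 64.1 CPM in wt/null isotype, at 64.7, 160 and 60.1 CPM in wt/null anti-TNF, at 37.0, 43.8 and 59.2 CPM in null/null isotype and at 66.0, 38.0 and 47.5 CPM in null/null anti-TNF. Again 40C4 and 40C2 were the null/null libraries inside the wt/null range. Gbp7 was at 52.8, 60.8 and 68.1 CPM in wt/null isotype, at 55.4, 119 and 47.8 CPM in wt/null anti-TNF, at 43.7, 34.9 and 60.7 CPM in null/null isotype and at 70.6, 36.0 and 50.5 CPM in null/null anti-TNF. For Gbp7 3 of the 6 null/null libraries, 40C4, 40C2 and 46C6, lay inside the wt/null range. The genotype estimates were -0.69 ± 0.26 (log2, SE) for Gbp3 and -0.44 ± 0.25 for Gbp7 with all libraries. Without the 2 libraries they were -0.50 ± 0.13 and -0.32 ± 0.16, at 70.9% and 79.3% of the wt/null level.

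On chromosome 5, Gbp4 and Gbp6 had the lowest levels per kb and estimates close to that of Gbp2. Gbp4 was at 4.89, 12.1 and 11.9 CPM in wt/null isotype and at 10.6, 77.0 and 9.43 CPM in wt/null anti-TNF. In null/null it was at 2.32, 2.93 and 5.98 CPM with isotype and at 8.68, 2.10 and 3.83 CPM with anti-TNF. One wt/null library, 40C3, fell inside the null/null range, and the other 5 lay above it. The estimate was -2.04 ± 0.61 (log2, SE), and -1.55 ± 0.34 without the 2 libraries, at 35.1% of the wt/null level.

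Gbp6, reported in mouse macrophages to act in defence against intracellular bacteria, was at 8.501, 10.5 and 9.87 CPM in wt/null isotype and at 8.001, 43.4 and 7.42 CPM in wt/null anti-TNF. In null/null it was at 2.56, 4.55 and 6.08 CPM with isotype and at 7.24, 1.63 and 2.88 CPM with anti-TNF. All null/null libraries lay below all wt/null libraries, with 40C2 at 7.24 CPM just under 46C7 at 7.42 CPM. The estimate was -1.72 ± 0.52 (log2, SE), and -1.45 ± 0.23 without the 2 libraries, at 40.0% of the wt/null level. The row may hold reads of other genes, or lack reads that it shares with them. Of the 50-base windows of Gbp6 transcripts, 70.65% also occur in transcripts of other genes, mostly the predicted gene Gm43302 and Gbp10. The corresponding shares were 1.44% to 18.12% for the other 7 members. Gm43302 is annotated on the same strand over 28.99% of the exon bases of Gbp6. Part of the sharing is therefore the same sequence annotated for both genes. How such reads were counted is not given in the sources used here.

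Gbp8 and Gbp9 differed least within chromosome 5. Gbp8 was at 5.72, 6.41 and 9.87 CPM in wt/null isotype, at 6.33, 44.5 and 8.11 CPM in wt/null anti-TNF, at 2.69, 5.75 and 4.08 CPM in null/null isotype and at 9.24, 3.23 and 6.94 CPM in null/null anti-TNF. Gbp9, a member found on Toxoplasma vacuoles, was at 35.3, 40.6 and 48.4 CPM in wt/null isotype, at 39.3, 93.6 and 37.2 CPM in wt/null anti-TNF, at 25.3, 37.4 and 34.3 CPM in null/null isotype and at 53.6, 26.1 and 36.8 CPM in null/null anti-TNF. The genotypes overlapped for both genes. The estimates were -1.21 ± 0.50 (log2, SE) for Gbp8 and -0.45 ± 0.26 for Gbp9, and -0.66 ± 0.27 and -0.32 ± 0.13 without the 2 libraries, at 62.2% and 79.6% of the wt/null level.

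Averaged over both antibodies, the estimates of all 8 Gbp genes were below 0, meaning lower in null/null, as were 49.9% of the 12981 tested genes, and none passed the test after correction over all genes. Their median was -1.06 (log2), beside 0.00 over all genes. Without 40C1 alone the median was -0.48, with Gbp8 at -0.49, Gbp7 at -0.18 and Gbp9 at -0.17. In edgeR's quasi-likelihood test 0 of 8 were called at an adjusted p below 0.05 (every adjusted p = 1.00), and 0.0077% of all genes were called, a single gene, which was Ifngr1 (-1.36 ± 0.08, adjusted p = 1.43e-05). At an unadjusted p below 0.05, 6 of the 8 were lower, with Gbp7 and Gbp9 (both adjusted p = 1.00, edgeR) as the exceptions, against 1.18% of all genes. With 1 library left out at a time this count ran from 3 to 7. It was 3 without null/null isotype replicate 1, where 534 of 13179 genes passed in either direction. It was 7 without wt/null anti-TNF replicate 3 (611 of 13164 genes). With libraries titled 40 only it was 3 (345 of 13017 genes). Gbp2 (unadjusted p = 0.00393, edgeR) and Gbp6 (unadjusted p = 0.0077, edgeR) were the 2 members whose 6 null/null libraries all lay below the 6 wt/null libraries, which held for 0.123% of all genes. In bulk samples fewer cells of a type that makes these RNAs and less RNA per cell cannot be told apart.

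Without 40C1 and 40C2 the estimates and their errors were smaller. The median was -0.65, all 8 were lower against 49.1% of the 13061 genes tested, and 7 of 8, all but Gbp7, had an unadjusted p below 0.05, against 1.23% of genes. edgeR again called 0 of 8, with Ifngr1 the single gene called (0.00766%); the lowest adjusted p among the members was 0.139, for Gbp6. Gbp2 and Gbp6 were again the members with no overlap, now in 5 against 5 libraries, against 0.377% of genes. The call depended on the tool: DESeq2 on the same 10 libraries, a combination chosen after the data were seen, called 14 genes (0.107%), among them Gbp6 (adjusted p = 1.04e-06), Gbp4 (adjusted p = 0.000339) and Gbp2 (adjusted p = 0.0175). limma voom on these libraries called 0 of 8 (0.00766% of genes called), as did DESeq2 on all 12 libraries (0.0308% of genes called).

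**Figure D2:**
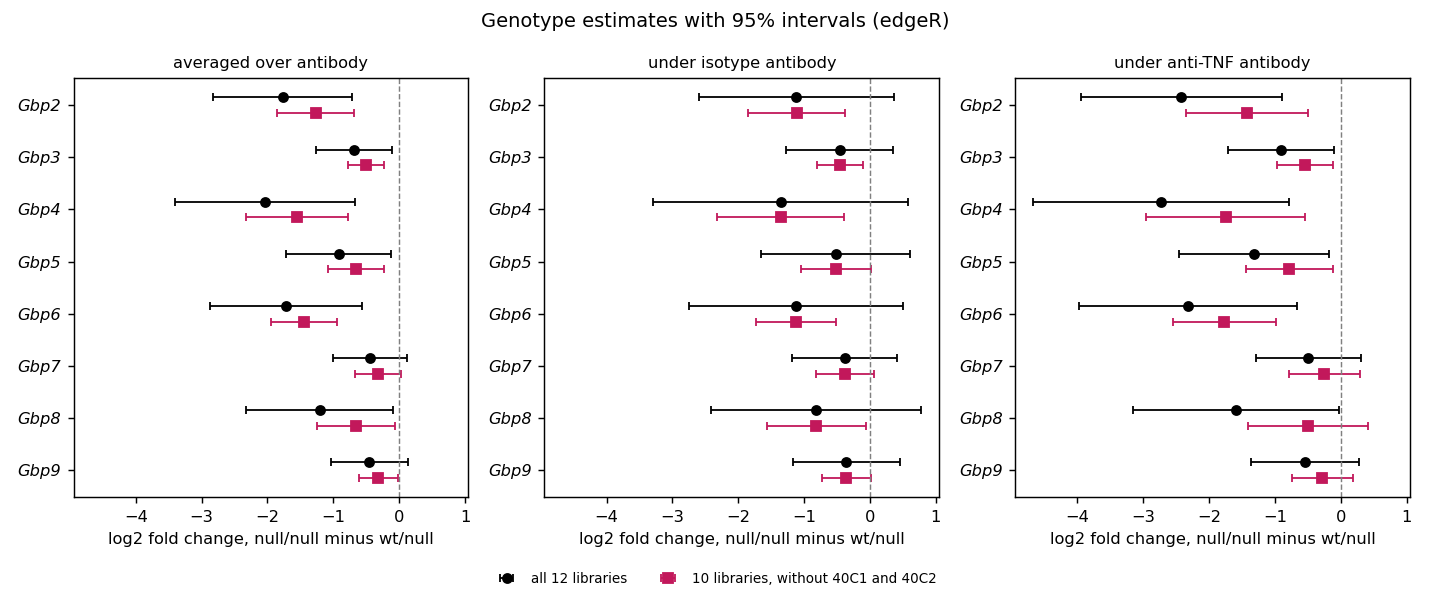
edgeR log2 fold changes, null/null minus wt/null, of each Gbp gene with 95% intervals, averaged over antibody (left), under isotype (middle) and under anti-TNF (right), with all 12 libraries (black circles) and without 40C1 and 40C2 (pink squares). All 48 points lie below 0, and the intervals without the 2 libraries are the narrower ones.

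Under isotype antibody alone, neither 40C1 nor 40C2 was among the 6 libraries compared, and the median estimate was -0.67 (log2) with or without them. All 8 members were lower, against 49.3% of genes, and 0 of 8 were called (0.0077% of genes). The spread used by the test is shared by all groups, so the errors still changed. With all libraries 0 of 8 had an unadjusted p below 0.05 (0.863% of genes were lower at that level). Without 40C1 alone it was 4 of 8, where 296 of 13132 genes passed in either direction. Without the 2 libraries it was 5 of 8 (1.55% of genes were lower at that level). Those 5 were Gbp2, Gbp3, Gbp4, Gbp6 and Gbp8. Gbp2 and Gbp6 had no overlap between 3 null/null and 3 wt/null libraries, as had 3.65% of genes in that direction.

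Under anti-TNF antibody all 8 members were again lower (49.3% of genes), and 0 of 8 were called (0.0077%). The estimates ran from -0.50 ± 0.36 for Gbp7 to -2.73 ± 0.87 for Gbp4 (log2, SE), with a median of -1.46, and 6 of 8 had an unadjusted p below 0.05, against 1.17% of genes. Gbp2, Gbp4 and Gbp6 had no overlap in 3 against 3 libraries, against 2.58% of genes. The library 40C1 carried much of this: without it alone the median was -0.37, and Gbp7 and Gbp9 turned to 0.022 each. In that fit 1 of 8 had an unadjusted p below 0.05, as had 165 of 13132 genes in either direction. The member count was 3 of 8 without null/null anti-TNF replicate 2 alone (302 of 13173 genes) or replicate 3 alone (261 of 13174 genes). Without 40C1 and 40C2 all 8 were lower (48.6% of genes), with a median of -0.66 beside -0.67 under isotype, and 5 of 8 had an unadjusted p below 0.05 (0.727% of genes). In those 4 remaining libraries 6 of 8 members had no overlap between genotypes, but so had 11.1% of genes in that direction. DESeq2 on these 10 libraries called Gbp6 under anti-TNF (adjusted p = 0.00569) and 2 genes in all (0.0153%), while on all 12 libraries it called 0 of 8 members and 2 genes (0.0154%).

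Neutralizing TNF in wt/null mice went with higher estimates of all 8 Gbp genes when every library was counted and with lower estimates of 7 of 8 when 40C1 and 40C2 were left out. With all libraries the estimates of anti-TNF minus isotype ran from 0.29 ± 0.36 for Gbp7 to 1.74 ± 0.83 for Gbp4 (log2, SE), with a median of 0.90. Of all genes, 50.8% had a higher estimate. edgeR called 0 of 8 members and 0 of all genes (0%), with 581 genes (4.48%) at an unadjusted p below 0.05, none of them a member, and DESeq2 and limma voom also called 0 genes. Without the 2 libraries the estimates lay between -0.32 ± 0.30 for Gbp6 and 0.05 ± 0.46 for Gbp4, with a median of -0.12, and 50% of genes were lower. The 95% intervals then reached from -0.43 to 0.34 for Gbp3 and from -0.97 to 1.08 for Gbp4, so changes of such sizes in either direction were not resolved. No member separated the antibodies in 3 against 3 libraries, as 4.45% of genes did downward and 5.71% upward.

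In null/null mice the antibody estimates were small and mixed, with 5 of 8 members higher (51.3% of genes) and a median of 0.14. edgeR called 0 of 8 members and 0 genes (0%), with 452 genes (3.48%) at an unadjusted p below 0.05, none of them a member, and DESeq2 and limma voom called 0 genes. Without 40C1 and 40C2, 7 of 8 were lower (49.6% of genes), with a median of -0.24. Gbp6 was then at -0.96 ± 0.34 (log2, SE; unadjusted p = 0.0148 and adjusted p = 1.00, edgeR), where 0.842% of genes were lower at that level, and Gbp8 at 0.29 ± 0.38 was the member that was higher. No member separated the antibodies in 3 against 3 null/null libraries, as 4.55% of genes did downward and 3.87% upward.

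**Figure D3:**
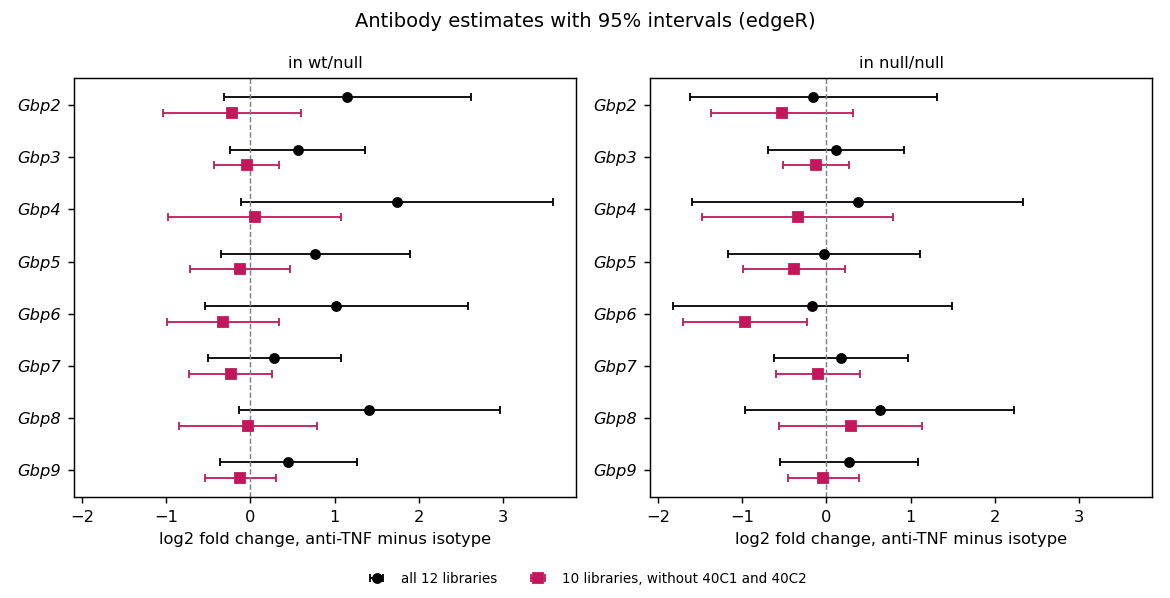
edgeR log2 fold changes, anti-TNF minus isotype, of each Gbp gene with 95% intervals in wt/null (left) and null/null (right), with all 12 libraries (black circles) and without 40C1 and 40C2 (pink squares). In wt/null the black points all lie above 0 and 7 of the 8 pink points lie below it.

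The difference between the antibody effects of the genotypes, tested as an interaction, was called for 0 of 8 members and for 0 genes (0%) by edgeR, with 196 genes (1.51%) at an unadjusted p below 0.05, none of them a member, and for 0 genes by DESeq2 and limma voom. All 8 estimates were below 0 with all libraries (50.6% of genes), with a median of -0.79 and values from -0.11 ± 0.51 for Gbp7 to -1.37 ± 1.21 for Gbp4 (log2, SE). Without 40C1 and 40C2, 5 of 8 were below 0 (49.8% of genes), with a median of -0.17 and a widest 95% interval of -1.92 to 1.13, for Gbp4. Without 40C1 alone 0 of 8 were below 0.

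The library 40C1 was the highest of the 12 for all 8 Gbp genes. Its level was 2.30 times (Gbp7) to 7.70 times (Gbp4) the mean of the other 2 wt/null anti-TNF libraries. Within null/null, 40C2 was the highest of the 6 libraries for 6 members and the second for Gbp2 and Gbp5, below 40C4. Among the other 5 null/null libraries, 40C4 was highest for 6 members, and the lowest was 40B2 for 4, 40A3 for 3 and 46C3 for 1. The high libraries came from both genotypes and, with 40C4, from both antibodies.

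Ifng, Tnf, most T and NK cell marker genes and the summed markers of dendritic and endothelial cells were also higher in 40C1 and 40C2 than in the other 10 libraries. Their part in the Gbp levels was not tested. Ifng, the gene for IFN-γ itself, was at 2.91 CPM in 40C1 and 1.48 CPM in 40C2 and at most 0.427 CPM in the other 10. Tnf was at 105 CPM in 40C1, 42.1 CPM in 40C2 and 20.7 to 40.8 CPM in the others. The 8 dendritic cell markers were all detected in every library, and their summed level was 337 and 286 CPM in 40C1 and 40C2, against 83.5 to 131 CPM in 5 wt/null and 98.6 to 142 CPM in 5 null/null libraries. That sum was made up mostly of Cd209a, Flt3 and Ccr7. Itgae lay within the range of the other 10 in both 40C1 and 40C2, as did Xcr1 in 40C2. The 10 T and NK cell markers summed to 174 and 128 CPM, against 104 to 151 CPM in 5 wt/null and 98.4 to 202 CPM in 5 null/null libraries, a sum made up mostly of Cd4, and up to 4 of them were at 0 in a library. Among them Gzma, a cytotoxic granule gene, had 5.24 CPM in 40C1 and 1.82 CPM in 40C2, while the other 10 libraries had no more than 0.477 CPM. Cd3d, a CD3 subunit of the T cell receptor complex, had 1.31 and 1.17 CPM, while the other 10 libraries had 0 to 0.214 CPM. Cd3e, Cd8a, Gzmb, Prf1, Nkg7 and Ncr1 were also above the other 10 libraries in both. Cd4 and Klrb1c lay within the range of the other 10. Endothelial markers summed to 52.8 and 47.2 CPM in 40C1 and 40C2 and to 20.8 to 39.8 CPM in the others. Fibroblast markers were lower in both, at 335 and 243 CPM against 512 to 1260 CPM. The muscle sums of both lay within the range of the others. The neutrophil sum was 2.25 CPM in 40C1 and 6.44 CPM in 40C2. It was at most 3.29 CPM in the others except null/null isotype replicate 1, at 33.5 CPM. For all 9 marker lists (the 4 above and those of B cells, neutrophils, eosinophils, endothelium and muscle) the sums of the genotypes overlapped in the 10 libraries, although the neutrophil sum reached 33.5 CPM in null/null isotype replicate 1 and ran from 2.22 to 3.29 CPM in the 5 wt/null libraries.

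**Figure D4:**
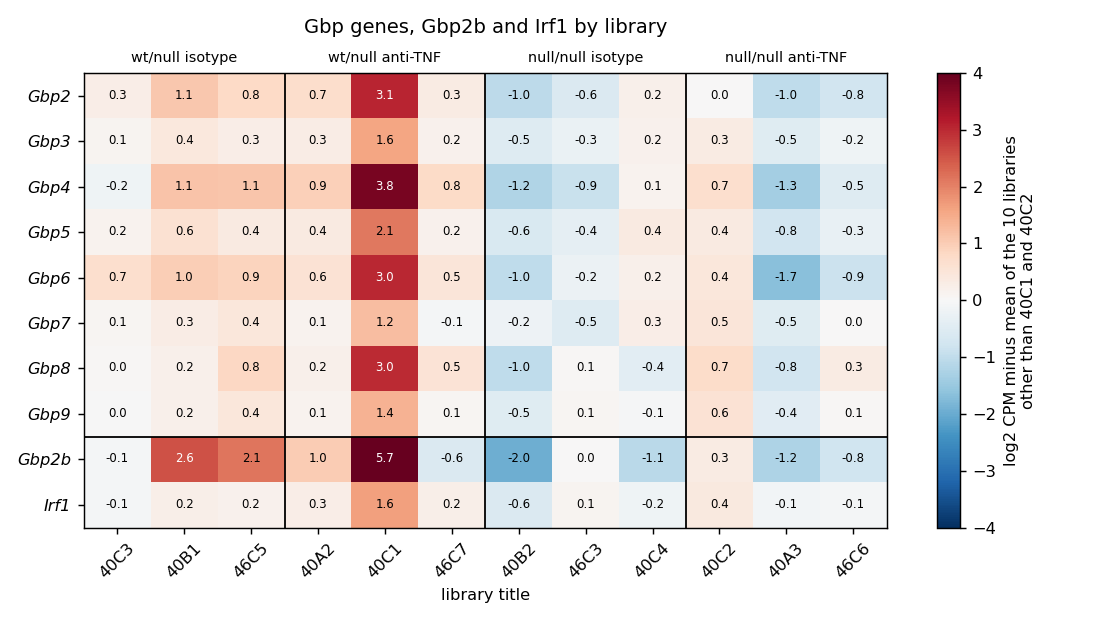
log2 CPM of each Gbp gene, Gbp2b and Irf1 in each library, minus the mean of the 10 libraries other than 40C1 and 40C2 (colour and printed value), with libraries grouped by genotype and antibody. The 40C1 column is red for every row, and 40B2 and 40A3 are the bluest null/null columns for Gbp2, Gbp3, Gbp4 and Gbp5.

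The 4 libraries whose titles start with 46, 1 in each group, gave a look at the pattern within that title number, whose meaning is not given. In them null/null minus wt/null was below 0 for 8 of 8 members under isotype (median -0.87, log2) and for 7 of 8 under anti-TNF (median -0.40), where Gbp7 was at 0.08. Anti-TNF minus isotype was below 0 for 8 of 8 in wt/null and 3 of 8 in null/null. With 1 library a group these values have no test.

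Ranked by group mean over all libraries, wt/null anti-TNF was highest for 8 of 8 members, but its lead over wt/null isotype was within the spread (the larger SD of the groups compared) for all of them. Without 40C1 and 40C2, wt/null isotype was highest for 7 members and wt/null anti-TNF for Gbp4. In that ranking the step from the lower wt/null group to the higher null/null group exceeded the spread for Gbp2, Gbp3, Gbp4 and Gbp6 and not for Gbp5, Gbp7, Gbp8 and Gbp9. The 2 null/null groups differed beyond their spread only for Gbp6, at 4.40 ± 1.77 CPM with isotype (SD, n = 3) and 2.26 ± 0.884 CPM with anti-TNF (n = 2). The 2 wt/null groups differed beyond it for Gbp6, at 9.63 ± 1.03 CPM with isotype (n = 3) and 7.71 ± 0.414 CPM with anti-TNF (n = 2), and for Gbp7, at 60.6 ± 7.64 and 51.6 ± 5.44 CPM.

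Of the other Gbp symbols in the table, Gbp2b, which is Gbp1 in older literature and lies between Gbp3 and Gbp2, passed the filter. It was at 0.358, 2.61 and 1.94 CPM in wt/null isotype, at 0.856, 23.01 and 0.233 CPM in wt/null anti-TNF, at 0.0407, 0.386 and 0.138 CPM in null/null isotype and at 0.492, 0.117 and 0.190 CPM in null/null anti-TNF. The genotypes overlapped, and the estimate averaged over antibody was -3.98 ± 1.15 (log2, SE), or -2.44 ± 0.69 without the 2 libraries. edgeR did not call it. Gbp2b had 6 to 562 counts in wt/null and 1 to 13 in null/null libraries, so it passed the filter mainly through wt/null. A lower null/null estimate is partly fixed by that, and no p-value is given. Gbp10 had 0 to 7 counts in 5 wt/null libraries, 35 in 40C1 and 0 in all 6 null/null libraries. Gbp11 had 0 to 4 counts in those 5, 36 in 40C1 and 0 or 1 in null/null. Neither was tested, and Gbp10 shares 84.07% of its 50-base windows with other genes.

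The genes whose levels followed the Gbp genes most closely were ranked by Pearson correlation with the mean standardized log2 CPM of the 8 members, among 9954 other genes whose log2 CPM averaged 2 or more. Over the 10 libraries without 40C1 and 40C2 7 of the first 8 were Tgtp2 (r = 0.974), Samhd1 (r = 0.943), Iigp1 (r = 0.939), Igtp (r = 0.930), Serpina3g (r = 0.928), Nlrc5 (r = 0.917) and Enpp4 (r = 0.914). Over all 12 libraries the r of the first 8 was 0.948 to 0.981, and 6 of the 8 were again among the first 8, with Tap1 and Irgm1 in place of Iigp1 and Enpp4. These libraries share the genotype and antibody groups, and the correlations are given as a description.

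The immunity-related GTPases, another family of IFN-γ-inducible GTPases that act on microbial vacuoles, also had mostly lower estimates. In null/null against wt/null, averaged over antibody, 9 of 10 were lower (49.9% of all genes) and 0 were called by edgeR (0.0077%). At an unadjusted p below 0.05, 8 were lower, against 1.18% of all genes. The median was -0.75 (log2), or -0.57 without 40C1 and 40C2. The 3 with the smallest unadjusted p were Iigp1 at -2.22 ± 0.51, Gm4951 at -1.51 ± 0.40 and Tgtp2 at -1.57 ± 0.48 (SE; every adjusted p = 1.00, edgeR). The difference between the families was not tested.

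Of 17 genes of the IFN-γ receptor and its signalling, 13 were lower (49.9% of all genes), with a list median of -0.16. Ifngr1 was the 1 that fell past the threshold (0.0077% of all genes). The other receptor chain Ifngr2 was at 0.04 ± 0.06 and the kinases Jak1 and Jak2 at 0.02 ± 0.07 and -0.04 ± 0.16 (log2, SE). Nlrc5, an activator of MHC class I genes, was at -0.55 ± 0.22, and Irf1 at -0.55 ± 0.25. Irf1 was at 110 to 138 CPM in 5 wt/null libraries and 359 CPM in 40C1. It was at 76.9 to 124 CPM in 5 null/null libraries and at 151 CPM in 40C2, so the genotypes overlapped.

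Genes induced mainly by type I interferon had mostly lower estimates averaged over antibody and under anti-TNF, and mostly higher ones under isotype. Averaged over antibody, 19 of 20 were lower (49.9% of all genes), with a median of -0.19. By edgeR 0 were called and 0 had an unadjusted p below 0.05 (1.18% of all genes were lower at that level). Under isotype alone 4 were lower (49.3% of all genes) and 16 higher, with a median of 0.10, where all 8 Gbp genes were lower. Under anti-TNF 20 of 20 were lower (49.3% of all genes), with a median of -0.51 beside -1.46 for the Gbp genes. Without 40C1 and 40C2 again 20 of 20 were lower (48.6% of all genes), with a median of -0.44 beside -0.66. Zbp1, a sensor of nucleic acids, was at -0.59 ± 0.30, Ifi44 at -0.70 ± 0.41 and Ifit2 at -0.39 ± 0.32 (log2, SE, averaged over antibody). The difference between the lists was not tested.

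Genes through which guanylate-binding proteins act in host defence had a median estimate near 0. Of 14 inflammasome, autophagy and oxidase genes 10 were lower (49.9% of all genes), 0 were called, and the median was -0.06. Casp1, the inflammatory caspase, was at -0.25 ± 0.08 (unadjusted p = 0.0096, adjusted p = 1.00, edgeR), Cybb, the NADPH oxidase subunit, at -0.20 ± 0.10 and Aim2, a DNA sensor, at -0.16 ± 0.13 (log2, SE). Of 12 genes of TNF, its receptors and NF-κB, 3 were lower (49.9% of all genes) and 9 higher, with a median of 0.06. Of these, 0 were called and 1 was higher at an unadjusted p below 0.05 (edgeR), beside 319 of 12981 genes in either direction. Nfkb2 was at 0.19 ± 0.05, Tradd, an adaptor of the TNF receptor, at 0.11 ± 0.08, and Rela at 0.08 ± 0.06. Tnf itself was at -0.13 ± 0.34 with all libraries and at 0.28 ± 0.16 without 40C1 and 40C2.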

How the data were processed

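RNA of 12 libraries was made into stranded mRNA libraries (NEBNext Ultra II) and sequenced paired-end, per the labels' protocols. The deposited table holds raw counts per gene symbol, not normalized. The submitters' processing notes name bcl2fastq 2.20, STAR, Bowtie and the build mm10 without roles; the counting tool, strand setting and annotation are not given in the sources used here. Columns were matched by title. Counts were filtered with filterByExpr, scaled by TMM and tested by edgeR 4.0.16 (R 4.3.3; quasi-likelihood with robust estimation, 1 mean per group, 4 groups), two-sided, with Benjamini-Hochberg correction over all tested genes in each of 6 comparisons and calls below 0.05. log2 CPM used a prior count of 2. Alternatives used DESeq2 1.42.0 and limma 3.58.1. Replicate numbers follow accession order and pair nothing. Exon lengths and shared windows came from GENCODE M21, positions and promoters from RefSeq.

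The Gbp genes, the gene lists and the tests were chosen with earlier results of these data known, and combinations of leaving out 40C1 and 40C2 with another tool or block were added after the data were seen. Named besides the members were the other Gbp symbols, Ifngr1, Ifng and Tnf, from each list up to 4 members past the threshold or else up to 3 with the smallest unadjusted p for genotype, and the 8 genes most correlated with the members. Further genes (Irf1, Ifngr2, Jak1, Jak2, Tap1, Irgm1 and cell markers) were named after their values were seen. The values of 1 gene that the naming rule selects are not reported here.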

Additional observations from a re-analysis of the deposited data

How the results depend on the processing

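No paired analysis was possible because the labels give the groups no shared replicate numbers. With the title number (40 or 46) as a block, 0 members were called in any comparison. In that fit Ifngr1 was the 1 gene of 12981 called in each genotype comparison, and 0 genes were called in the others. Over 23 other settings the genotype estimates averaged over antibody and under isotype were below 0 for every member (184 of 184 values each), and under anti-TNF for 182 of 184. Over 20 settings 14 of 160 antibody values in wt/null, 62 of 160 in null/null and 145 of 160 interaction values were below 0.

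Without 40C1 and 40C2 the sign turned in wt/null anti-TNF minus isotype for Gbp2 (-0.21), Gbp3 (-0.044), Gbp5 (-0.12), Gbp6 (-0.32), Gbp7 (-0.23), Gbp8 (-0.026) and Gbp9 (-0.12). It turned in null/null for Gbp3 (-0.13), Gbp4 (-0.34), Gbp7 (-0.10) and Gbp9 (-0.041), and in the interaction for Gbp7 (0.13), Gbp8 (0.31) and Gbp9 (0.075). limma voom turned the null/null antibody estimates of Gbp3 (-0.049) and Gbp4 (-0.091) and the interaction of Gbp7 (0.025). With libraries titled 40 only, Gbp6 in null/null was at 0.029, and edgeR called 0 genes for genotype under isotype and 0 under anti-TNF, a fit with fewer samples. DESeq2 on all libraries called 4 genes for genotype averaged, 2 under isotype and 2 under anti-TNF. DESeq2 without 40C1 and 40C2 called 14, 8 and 2 genes, with 3 members averaged, 0 under isotype and 1 under anti-TNF. Beside these, no member was called under any setting, and the lowest adjusted p under isotype was 0.0947 for Gbp6. The cause of these differences was not tested.

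With 1 library left out at a time, the log2 estimates ranged as follows. Antibody in wt/null: -0.22 to 1.56 (Gbp2), -0.044 to 0.80 (Gbp3), -0.12 to 1.09 (Gbp5), -0.32 to 1.41 (Gbp6), -0.23 to 0.52 (Gbp7), -0.026 to 1.84 (Gbp8) and -0.12 to 0.68 (Gbp9), each lowest without 40C1. Antibody in null/null: -0.52 to 0.26 (Gbp2), -0.13 to 0.32 (Gbp3), -0.34 to 0.89 (Gbp4), -0.39 to 0.31 (Gbp5), -0.96 to 0.20 (Gbp6), -0.10 to 0.41 (Gbp7) and -0.041 to 0.48 (Gbp9). Interaction: -1.72 to 0.060 (Gbp2), -0.69 to 0.16 (Gbp3), -2.09 to 0.32 (Gbp4), -1.16 to 0.091 (Gbp5), -1.99 to 0.15 (Gbp6), -0.39 to 0.40 (Gbp7), -1.20 to 0.66 (Gbp8) and -0.49 to 0.38 (Gbp9). Genotype averaged: -1.98 to -1.09 (Gbp2), -0.81 to -0.38 (Gbp3), -2.40 to -1.20 (Gbp4), -1.10 to -0.47 (Gbp5), -2.12 to -1.05 (Gbp6), -0.58 to -0.18 (Gbp7), -1.42 to -0.49 (Gbp8) and -0.60 to -0.17 (Gbp9), each highest without 40C1. Genotype under anti-TNF: -0.77 to 0.022 (Gbp7) and -0.85 to 0.022 (Gbp9).

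Each member had at least 42 counts in every library. The median SE of the members was 0.42 (log2) for genotype averaged, and 0.21 without 40C1 and 40C2.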
